A study of Mus musculus with 43 samples.

Results

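The promoter H3K4me3 peaks that were new at postnatal day 14 (P14) in the wild-type (WT) mouse testis are described here. A peak was taken from the first P14 H3K4me3 replicate when it overlapped a peak of the second P14 replicate by at least 1 bp, overlapped no peak of either P7 replicate, and had its summit within 3000 bp of a GENCODE vM21 transcript start. Of 25627 peaks in the first P14 replicate, 24594 lay on the 19 autosomes, 20943 of those were also in the second replicate, and 5323 of those overlapped no P7 peak. The promoter rule left 1603 peaks at 1513 genes, each peak being given to the gene with the start nearest to its summit. The P14 lists were longer than the P7 lists, with 25627 and 26635 peaks against 19162 and 18465. With all 4 lists at the length of the shortest the rule gave 672 peaks, and without 1 of the lists it gave 1913 to 2932. The members were thus selected on the measured H3K4me3 calls at both ages, and their H3K4me3 values are given as a description with no test. For comparison, 13258 peaks met the same rule but overlapped a peak in each of the P7 lists (promoter peaks of both ages), and 3720 of the new peaks lay farther than 3000 bp from any start (new distal peaks). A further 876 promoter peaks overlapped a peak of only 1 P7 list and are in neither class.

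The data were CUT&Tag peak lists from testicular cells of WT C57BL/6J mice at P7 and P14, in which an antibody tethers the Tn5 transposase to chromatin carrying a histone mark, and RNA sequencing at P7. H3K4me3, H3K27ac, H3R2me2a, H3R8me2a and H4R3me1 had 2 WT lists per age, H4R3me2a had 3 per age, and H4R3me2s had 2 WT and 2 knockout lists at P7 and 3 WT lists at P14. Bulk RNA-seq of P7 whole testes had 3 WT and 3 knockout libraries, and Smart-seq2, an amplification method for small inputs, had 2 WT and 2 knockout libraries of P7 spermatogonia sorted by fluorescence. No RNA of P14 was analysed here. The knockout (Prmt1-dKO) carried floxed alleles of Prmt1, the main type I arginine methyltransferase, whose exons 4 and 5 were removed in germ cells by the tamoxifen-inducible Ddx4-CreERT2 after 3 days of injection. Per the methods the P7 cells were enriched for spermatogonia and the P14 cells were spermatocytes, from tubules digested with collagenase and trypsin and passed through a 40 µm strainer to remove Sertoli cells, at about 50000 cells per assay. The P14 samples were titled as spermatogonia while their cell type entry read spermatocyte, and the sorted controls were labelled WT while the methods describe sorted controls with 1 floxed allele. Nothing in the labels ties replicates to separate animals, so each p-value measures the spread between these samples, which may be technical.

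H3K4me3 is laid down by COMPASS-type methyltransferases around the start sites of active or poised genes, and most CpG-rich promoters carry it in many cell types. In male germ cells it is also placed by PRDM9 at recombination hotspots during meiotic prophase, so that new H3K4me3 in spermatocytes can lie at promoters and elsewhere. H3K27ac marks active promoters and enhancers. The asymmetric dimethyl marks H4R3me2a, H3R2me2a and H3R8me2a, the monomethyl mark H4R3me1 and the symmetric mark H4R3me2s are written on histone arginines by enzymes of the PRMT family.

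The sequences below show the kinds of DNA found under the new peaks, and were chosen after their values were seen from the genes of the naming rule. Each is taken from the 300 bases around the midpoint of the peak, read 5′ to 3′ on the strand of its gene in the GRCm38 genome, and where an annotated untranslated region would exceed 30 bases it was shortened to the stretch with the most matching bases. Capitals mark matches, on either strand, to the letters GCGCATGC (NRF1), CACGTG (E-box), TAACNG (MYB), GGGGCGGGG (SP/KLF) or to the word GNTGCTNCT described later. Where a match overlaps its own reverse complement, the capitals run through both.

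Spo11 (chr2:172979735-172979871, plus strand): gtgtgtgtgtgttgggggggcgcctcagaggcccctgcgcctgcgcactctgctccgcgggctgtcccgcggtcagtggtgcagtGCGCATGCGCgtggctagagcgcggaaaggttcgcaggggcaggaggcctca
Msh4 (chr3:153905781-153906014, minus strand): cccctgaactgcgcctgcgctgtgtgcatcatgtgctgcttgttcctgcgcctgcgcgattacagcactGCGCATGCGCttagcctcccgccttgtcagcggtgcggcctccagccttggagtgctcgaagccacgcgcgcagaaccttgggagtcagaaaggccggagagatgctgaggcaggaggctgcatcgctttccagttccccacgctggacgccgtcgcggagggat
Piwil1 (chr5:128736009-128736203, plus strand): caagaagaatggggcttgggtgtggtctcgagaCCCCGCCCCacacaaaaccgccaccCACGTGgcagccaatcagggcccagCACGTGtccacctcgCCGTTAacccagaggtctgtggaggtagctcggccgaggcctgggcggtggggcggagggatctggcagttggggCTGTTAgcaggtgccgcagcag
Hsf2bp (chr17:32034279-32034522, minus strand): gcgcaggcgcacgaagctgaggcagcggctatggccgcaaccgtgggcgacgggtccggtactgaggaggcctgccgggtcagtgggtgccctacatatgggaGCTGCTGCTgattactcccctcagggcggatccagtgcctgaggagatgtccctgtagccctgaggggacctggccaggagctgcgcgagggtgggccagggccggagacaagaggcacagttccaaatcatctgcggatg
Gsg1 (chr6:135256661-135256960, minus strand): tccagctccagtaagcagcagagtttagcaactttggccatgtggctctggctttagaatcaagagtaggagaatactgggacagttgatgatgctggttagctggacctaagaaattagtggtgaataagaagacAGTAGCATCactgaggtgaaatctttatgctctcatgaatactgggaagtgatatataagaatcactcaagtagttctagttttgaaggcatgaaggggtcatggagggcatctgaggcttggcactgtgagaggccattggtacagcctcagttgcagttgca
Usp48 (chr4:137624756-137625055, plus strand): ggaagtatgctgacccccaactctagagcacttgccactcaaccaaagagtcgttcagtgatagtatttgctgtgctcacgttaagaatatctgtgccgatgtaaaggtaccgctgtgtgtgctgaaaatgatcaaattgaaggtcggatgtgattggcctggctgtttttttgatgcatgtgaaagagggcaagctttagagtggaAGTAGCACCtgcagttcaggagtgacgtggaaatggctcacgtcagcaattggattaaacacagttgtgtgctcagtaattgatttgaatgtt

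The first 3 stretches belong to germline genes without a P7 promoter peak, namely Spo11, which makes the meiotic double-strand breaks, Msh4, a crossover factor, and Piwil1, a PIWI protein of pachytene spermatocytes. Spo11 and Msh4 hold the palindromic GCGCATGCGC in which the NRF1 letters are read on both strands. This letter string was found in 1.56% of the new promoter peaks, 1.62% of the promoter peaks of both ages and 2.7% of all 31396 RefSeq promoters of the same length (GRCm38.p6). The printed stretches of Spo11 and Msh4 had CpG observed/expected ratios of 0.787 and 0.862. Those of Gsg1 and Usp48 had ratios of 0.0 and 0.492 and GC contents of 45.0% and 44.7%. The Gsg1 summit lay 2207 bp from the nearest start and the Usp48 summit 338 bp. Hsf2bp carries the word inside the gene, downstream of its start.

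The new promoter peaks were weaker and narrower than the promoter peaks of both ages and lay farther from starts. Their median fold enrichment over the local background, as MACS2 gives it, was 4.12 in the first P14 replicate and 4.48 in the second, and their median width was 416 bp. The peaks of both ages had medians of 5.87 and 6.32 and a width of 983.5 bp. The −log10 q of the new peaks had a median of 5.46 in the first replicate and reached 33.0, against a median of 19.998 for the peaks of both ages. The median distance from summit to nearest start was 590 bp for the new peaks and 148 bp for those of both ages.

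**Figure D1:**
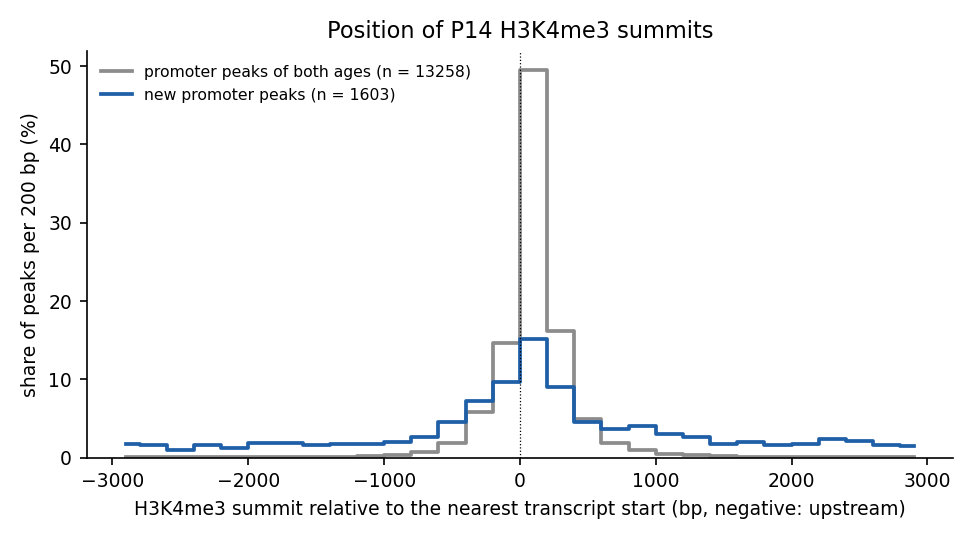
Position of the H3K4me3 summit relative to the nearest transcript start, in bins of 200 bp, for the 1603 new promoter peaks (blue) and the 13258 promoter peaks of both ages (grey). The grey line is concentrated just downstream of the start, whereas the blue line has a lower maximum there and runs on to 3000 bp on either side.

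In the plot of summit positions, 732 new peaks (45.7%) lay within 500 bp of a start, as compared with 90.6% of the peaks of both ages, while 21.1% of the bases in the promoter windows are that close. The summit lay upstream of its nearest start, which can be an internal start of the gene, for 42.9% of new peaks. The summit was in an exon for 33.8%, in an intron for 35.6% and outside the gene for 30.6%. The gap to the nearest P7 H3K4me3 peak had a median of 14172 bp, and it was under 1000 bp for 274 peaks (17.1%), which therefore flanked a P7 peak. The nearest gene was protein-coding for 1090 peaks (68.0%), against 90.8% for the peaks of both ages, and was a processed pseudogene for 149 and a lincRNA for 118. More than 1 gene had a start in the window of 258 peaks. By autosome, the new peaks made up between 8.44% (chromosome 3) and 12.4% (chromosome 17) of the sum of new promoter peaks and promoter peaks of both ages.

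The members divided evenly by the state of their gene at P7. For 803 peaks the gene already had a P7 H3K4me3 promoter peak at another place within 3000 bp of one of its starts, and for 800 peaks it had none. These were 756 and 757 genes. Of all 51229 autosomal genes, 17719 had a P7 promoter peak. Among protein-coding genes alone, 344 of 1018 members had none, close to the 7327 of all 20807 in the annotation. Between the members with and without a P7 promoter peak the P7 levels were far apart. In WT whole testes the first group had a median of 20 TPM, a level scaled for transcript length and sequencing depth, and 81.1% of its genes had a mean of at least 1 TPM, whereas the second had a median of 0.0667 TPM and 22.8%. Over all genes of new peaks the share was 52.0% (783 of 1506 in the table), with 51.4 to 52.1% in single libraries, and it was 87.8% for genes of the promoter peaks of both ages and 29.0% for all autosomal genes. In bulk tissue fewer cells of a type and less RNA per cell cannot be told apart.

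Since gene types differed between these sets, protein-coding genes are also given alone. Of the 344 protein-coding members without a P7 promoter peak, 42.4% reached 1 TPM in whole testes, as compared with 14.8% of all 7311 autosomal protein-coding genes without a P7 promoter peak, members included. In sorted spermatogonia the shares were 34.0% and 9.36%. Over all genes of new peaks, 47.4% reached 1 TPM in sorted spermatogonia, 72.6% of those with a P7 peak elsewhere and 22.2% of those without.

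**Figure D2:**
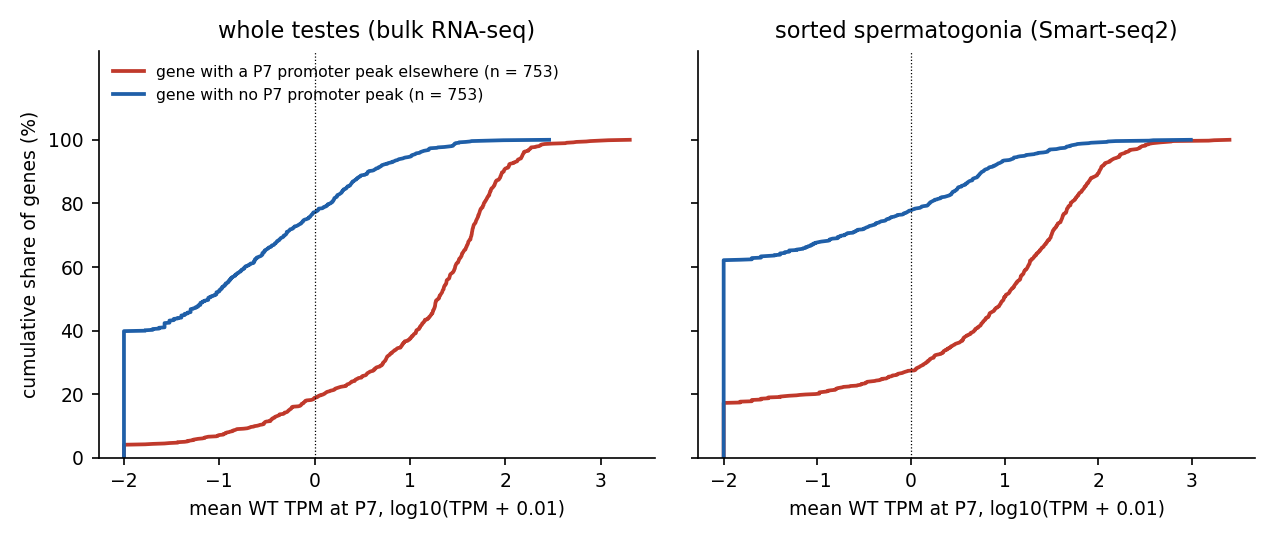
Cumulative share of the genes of new promoter peaks by mean WT level at P7, as log10(TPM + 0.01), in whole testes (3 libraries) and sorted spermatogonia (2 libraries), for the 753 genes in the table with a P7 promoter peak elsewhere (red) and the 753 without (blue). The dotted line marks 1 TPM, and in both panels the red line lies to the right of the blue.

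The most highly expressed members were genes with a P7 peak elsewhere. Ptma, the chromatin protein prothymosin alpha, was measured at 2093, 2034 and 1938 TPM in the WT testes, and its new peak lay 690 bp from the nearest start and 387 bp from a P7 peak. Gnas, the stimulatory G protein subunit, followed with a mean of 1203 TPM ± 42.6 (SD, n = 3), then Ptms with 997 ± 61.6, the glycolytic enzyme Aldoa with 781 ± 42.3 and the respiratory chain subunit Cox6c with 706 ± 31.3. All 5 had a P7 promoter peak at another position. Gnas was at 12.6 and 12.6 TPM in the sorted WT spermatogonia, so its level in whole testes was far above that of the sorted cells.

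Several new peaks lay at the starts of genes of meiotic prophase. Of 48 autosomal genes on a meiotic prophase list, 8 (16.7%) had a new promoter peak, against 2.95% of all autosomal genes and 4.89% of protein-coding ones. The 8 genes were Spo11, Msh4, Mei1, Hsf2bp, Majin, Msh5, Zcwpw1 and Rec8. All 8 summits lay within 500 bp of a start, H3K27ac peaks were in both P14 lists at 6 and in 1 list at 2, 3 genes (Msh4, Mei1 and Hsf2bp) had H3K27ac in 1 P7 list, and 6 genes had no P7 promoter peak, the exceptions being Hsf2bp and Zcwpw1. Of all 48 genes on the list, 37 had a P7 promoter peak.

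Spo11 had its new peak at chr2:172979546-172980224, with the summit 180 bp downstream of the nearest start and fold enrichments of 6.81 and 7.30 in the P14 replicates. Its level was 0.56, 0.31 and 0.9 TPM in the WT testes and 18.9 and 0.09 TPM in the sorted WT spermatogonia, so that the sorted libraries disagreed. Msh4 had its peak at chr3:153905570-153906291, 391 bp downstream of the start, with fold enrichments of 6.23 and 6.90, and was at 0.77, 1.19 and 0.87 TPM in testes and at 7.19 and 9.41 TPM in sorted cells. Both peaks were overlapped by H3K27ac, H3R2me2a and H3R8me2a in both P14 lists, and at P7 Spo11 had none of these 3 marks and Msh4 had H3K27ac in 1 list.

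Hsf2bp, a partner of BRCA2 in meiotic recombination, had its peak at chr17:32034183-32034675, 1300 bp from a P7 peak. Its summit lay 122 bp downstream of the nearest start, and more than 1 gene had a start in this window. It was at 7.89, 8.59 and 8.15 TPM in testes and 172 and 112 TPM in sorted spermatogonia. Mei1, needed for double-strand breaks, was at 4.69, 6.03 and 5.46 TPM in testes and 60.2 and 30.4 TPM in sorted cells. Majin, which tethers telomeres to the nuclear envelope, was at 1.07, 2.75 and 2.68 TPM in testes and 29.9 and 29.1 TPM in sorted cells. Msh5, the partner of Msh4, was at 2.44, 4.4 and 7.01 TPM in testes and 42.8 and 66.7 TPM in sorted cells. For these 4 genes, as for Msh4, both sorted WT libraries lay above all 3 WT testes.

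Zcwpw1, a reader of the PRDM9 marks, had the highest levels of the list members, with means of 64.6 TPM in testes and 317 TPM in sorted cells, and Rec8, the meiotic cohesin subunit, had means of 15.7 and 29.0 TPM. All 8 genes reached a mean of 1 TPM in the sorted cells and 6 did in testes. Spo11 reached it in the sorted cells through 1 library alone, at 18.9 TPM beside 0.09 TPM. The medians in sorted cells and testes were 37.4 and 5.01 TPM over the 8 genes and 42.3 and 8.19 TPM over all 48 of the list. RNA of the 8 genes was thus measured at P7, while no promoter peak was called for 6 of them at that age. The RNA assays differed in library preparation, and levels set side by side across them were not tested.

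**Figure D3:**
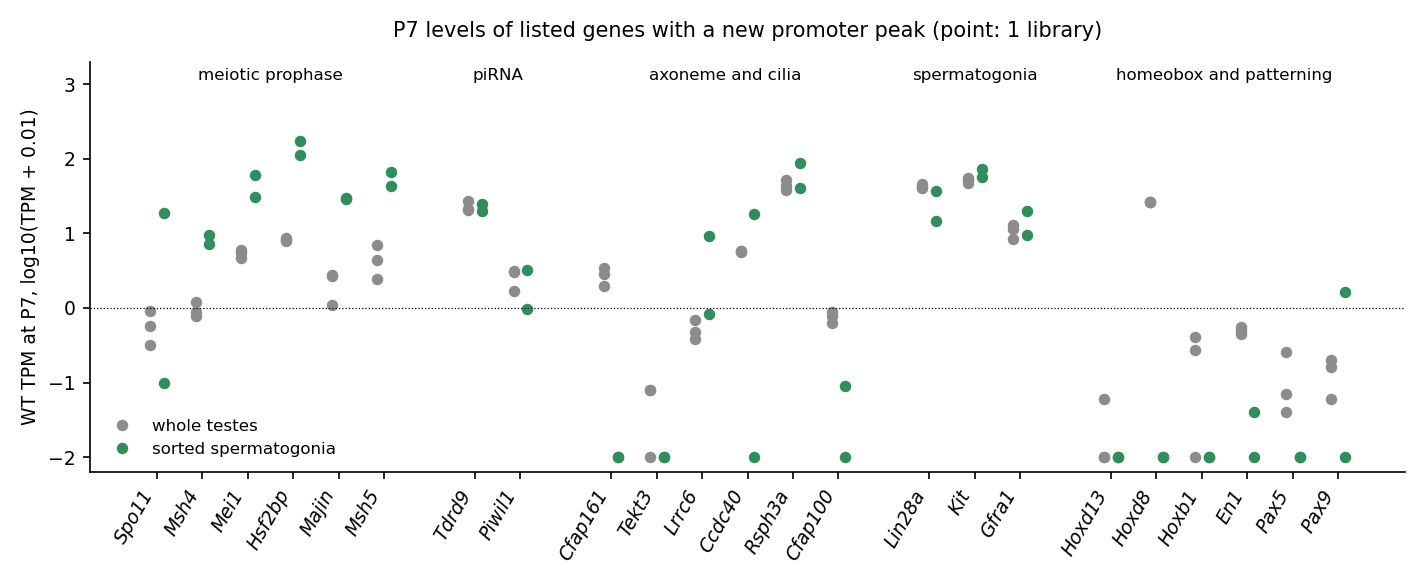
WT level at P7, as log10(TPM + 0.01), of the listed genes with a new promoter peak, at most 6 per list by strength of the peak, in 3 whole testes (grey) and 2 sorted spermatogonia libraries (green). The meiotic genes other than Spo11 lie higher in the sorted cells than in testes, and 5 of the 6 homeobox and patterning genes lie below 1 TPM (dotted line) in all 3 testes.

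The piRNA list gave 2 of 29 genes, Tdrd9 and Piwil1, neither of which had a P7 promoter peak and both of which had H3K27ac in both P14 lists. Tdrd9, a helicase of transposon silencing, was at 20.9, 27.1 and 20.7 TPM in testes and 20.02 and 25.1 TPM in sorted cells. Piwil1, whose summit lay 1 bp from its start at chr5:128735951-128736366, was at 1.67, 3.15 and 3.03 TPM in testes and 3.18 and 0.97 TPM in sorted cells. The Tdrd9 groups overlapped, and 1 sorted library of Piwil1 lay below the testes and 1 above.

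The axoneme and cilia list gave 14 of 83 genes (16.9%), of which 10 had no P7 promoter peak. H3K27ac was in both P14 lists at 4 of them (Lrrc6, Ak7, Dnah14 and Cfap126), in 1 list at 4 and in neither at 6. Lrrc6, a dynein arm assembly factor, was at 0.46, 0.37 and 0.67 TPM in testes and 0.83 and 9.26 TPM in sorted cells. Ccdc40, a ruler protein of the axoneme, was at 5.82, 5.53 and 5.77 TPM in testes and 18.2 and 0 TPM in sorted cells, so the sorted replicates again disagreed. Tekt3, a tektin of the sperm flagellum, was at 0.07, 0.07 and 0 TPM in testes and listed at 0 in both sorted libraries. The median of the 14 genes was 1.84 TPM in testes and 0.02 TPM in sorted cells.

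The spermatid and acrosome list gave 3 of 65 genes, namely Gsg1, Oaz3 and Spata18, none of which had an H3K27ac peak at either age. Gsg1, a germ cell protein of spermatids, was at 0.89, 0.94 and 0.79 TPM in testes and listed at 0 in the sorted cells, and its peak lay 2207 bp from the start. The spermatogonia list gave 3 of 20. Lin28a, an RNA-binding protein of undifferentiated spermatogonia, had no P7 promoter peak although it was at 40.8, 45.4 and 41.4 TPM in testes and 36.7 and 14.8 TPM in sorted cells. Its new summit lay in an intron, 8 bp from an annotated start inside the gene. Kit, the receptor of differentiating spermatogonia, had its new summit in an intron, 1029 bp downstream of the nearest annotated start. That peak lay 65892 bp from any P7 peak, although the gene had a P7 promoter peak at another start. Gfra1, the GDNF receptor, had a new peak 70 bp from a P7 peak.

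The developmental homeobox and patterning list gave 12 of 74 genes (16.2%), a share close to that of the meiotic list, but none of the 12 peaks had an H3K27ac peak in any list of either age, and their median level was 0.253 TPM in testes and 0.0 TPM in sorted cells. Hoxd13, a limb and genital patterning gene, was at 0.05, 0 and 0 TPM in testes and listed at 0 in sorted WT cells, and its peak at chr2:74668348-74668579 had H4R3me2a in 3 of 3 and H3R2me2a in 2 of 2 P14 lists and in no P7 list. Hoxb1 was likewise without H3K27ac but had H4R3me2a, H3R2me2a and H3R8me2a each in 2 P14 lists and no P7 list, at 0.4, 0 and 0.26 TPM in testes. Hoxd8 had the highest level of the 12, with 26.2, 26.2 and 26.0 TPM in testes and 0 in both sorted libraries, and its peak lay 270 bp from a P7 peak. Of the 12 genes, 6 had a P7 promoter peak elsewhere.

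No gene of the Sertoli (17 genes), Leydig (11), macrophage (14) or housekeeping (18) lists had a new promoter peak, beside 4.89% of all autosomal protein-coding genes, a share at which lists of this length can hold none. The peritubular myoid list gave Cnn1, smooth muscle calponin, and the endothelial list gave Vwf, both with summits over 500 bp from a start and without H3K27ac. Markers of these cell types differed between the RNA samples. The summed level of the Sertoli list was 11542 to 12422 TPM over the WT testes and 735 to 915 TPM over the sorted WT cells, and that of the macrophage list was 178 to 209 TPM and 0.0 to 0.19 TPM. The meiotic prophase list summed to 757 to 869 TPM in testes and 4548 to 4650 TPM in sorted cells. The part that a change of cell types between P7 and P14 plays in the peak lists was not tested.

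The strongest new peaks lay more often at genes that already had a promoter peak at P7. Of the 12 peaks with the highest mean −log10 q, 11 were at such genes. Over the 401 strongest peaks the share was 57.9%, as compared with 50.1% over all new peaks. The exception was the first, at the T cell receptor gene model C920008G01Rik on chr14:53019374-53021080, with fold enrichments of 6.96 and 6.85, a width of 1707 bp and no P7 peak within 197178 bp, whose gene was listed at 0 TPM in every WT library. The others were at Rrp1b, Mink1, Agtpbp1, Frmd5, Trappc10, Cars, Sfi1, Pde9a, Dgkd, Usp48 and Anln. At Mink1, a kinase gene at 46.2, 43.2 and 40.2 TPM in testes, the summit lay 29 bp from an annotated start and 29893 bp from the nearest P7 peak. Usp48, a deubiquitinase gene at 87.8, 88.5 and 93.2 TPM, had a 1550 bp peak in an intron with none of the 6 other marks at either age. H3K27ac was in both P14 lists at Rrp1b, Sfi1 and Dgkd among the 12.

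The other marks were found at a minority of the new peaks, and more often at P14 than at P7. H3K27ac overlapped 4.87 and 5.36% of the new peaks in the P7 lists and 21.6 and 20.96% in the P14 lists. H3R2me2a overlapped 5.61 and 5.49% at P7 and 25.3 and 28.3% at P14. H4R3me2a overlapped 4.18, 4.80 and 4.30% at P7 and 12.5, 17.3 and 16.2% at P14. The P14 lists lay above the P7 lists without overlap for all marks, by mean differences of 16.2 percentage points (H3K27ac), 21.2 (H3R2me2a), 10.9 (H4R3me2a), 9.83 (H3R8me2a), 6.49 (H4R3me1) and 1.61 (H4R3me2s). In exact permutation tests over lists (two-sided) p was 0.1 for H4R3me2a, 0.2 for H4R3me2s and 0.333 for each of the others, and the smallest p the design allows is 0.1 with 3 lists in a group and 0.333 with 2 against 2, so none could pass 0.05. With only mark peaks at q of at most 0.01 the differences were smaller, at 10.9 points (H3K27ac), 11.6 (H3R2me2a), 3.06 (H4R3me2a), 2.71 (H3R8me2a), 1.25 (H4R3me1) and 0.0104 (H4R3me2s), and that of H4R3me2s was 0.873 without P14 replicate 1.

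**Figure D4:**
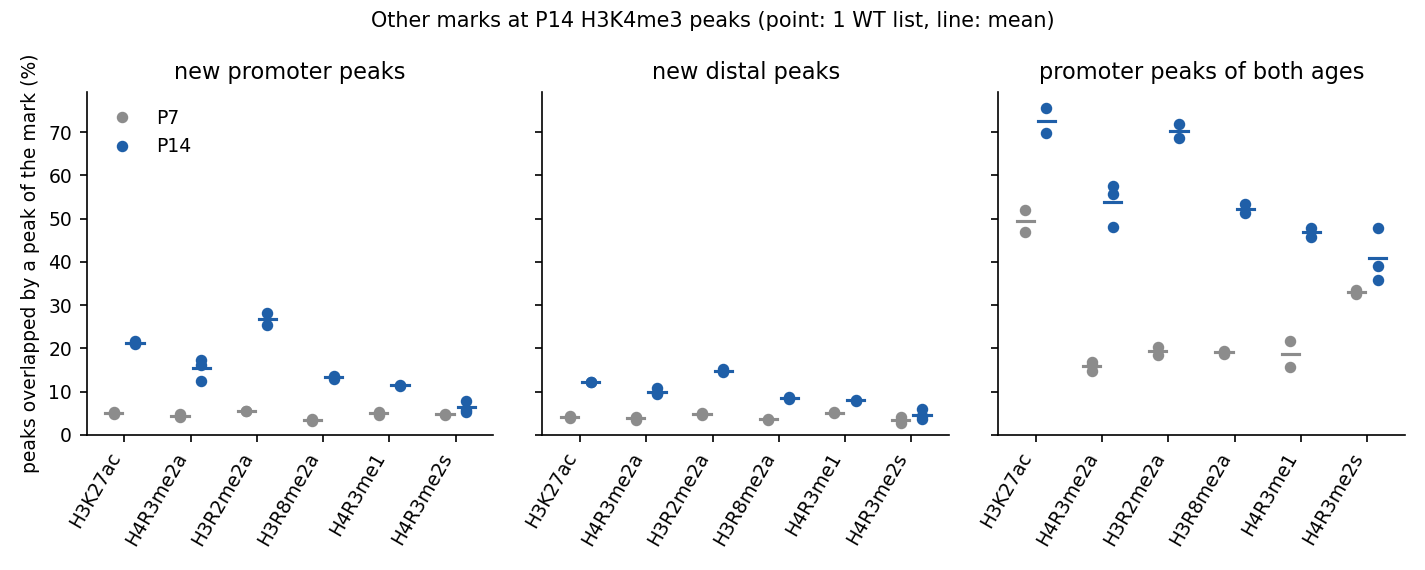
Share of P14 H3K4me3 peaks overlapped by at least 1 bp of a peak of each other mark, in every WT list at P7 (grey) and P14 (blue), for the new promoter peaks, the new distal peaks and the promoter peaks of both ages, with the mean as a line. At the new promoter peaks the shares are below 6% at P7 and reach 26.8% on average for H3R2me2a at P14, and at P14 the mean of every mark lies between those of the distal peaks and of the peaks of both ages.

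The lengths of the lists differed between the ages, with 21974 and 23780 H3K27ac peaks at P7 and 37984 and 45817 at P14. When each list was shortened to its best peaks at the length of the shortest list of its mark, the mean share of new peaks with H3K27ac was 4.87% at P7 and 14.2% at P14, that with H3R2me2a 5.24 and 13.01%, and that with H4R3me2a 4.30 and 7.74%. H3R8me2a then had 3.46 and 7.05%, H4R3me1 had 4.77 and 9.08%, and H4R3me2s had 3.93 and 4.99%. The shares were also higher at P14 at the promoter peaks of both ages. There the full lists of H3K27ac overlapped 49.3% ± 3.63 (SD, n = 2) at P7 and 72.6% ± 4.04 at P14, and at equal length 48.7 and 65.5%. The full lists of H3R2me2a overlapped 19.3 and 70.3% at the 2 ages, those of H4R3me2a 15.9 and 53.7%, those of H3R8me2a 19.1 and 52.3%, those of H4R3me1 18.7 and 46.8%, and those of H4R3me2s 33.0% ± 0.741 and 40.9% ± 6.19 (n = 3). In the full lists the ratio of P14 to P7 for H3K27ac was 4.16 at the new peaks and 1.47 at those of both ages. For H4R3me2a it was 3.46 and 3.37. At equal length the ratios were 2.91 and 1.34 for H3K27ac, and 1.797 and 2.51 for H4R3me2a. H3K27ac was then the only mark with a higher ratio at the new peaks than at those of both ages. In the full P7 knockout lists H4R3me2s overlapped 3.87% ± 0.0882 (n = 2) of the new peaks as compared with 4.71% ± 0.221 (n = 2) in WT (exact permutation test, two-sided, p = 0.333, the smallest possible). At the promoter peaks of both ages the knockout share was 20.003% ± 3.83 (n = 2) beside the WT share of 33.0%, also at p = 0.333 in the exact test.

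H3K27ac was in both P14 lists at 198 new peaks, in 1 at 287 and in neither at 1118, and 131 of the 198 had it in no P7 list. The 198 peaks lay nearer to starts, with a median of 318.5 bp against 722 bp for the 1118 peaks without it, although their median fold enrichments for H3K4me3 were close, at 3.97 and 4.15. Other marks accompanied H3K27ac. H3R2me2a was in both P14 lists at 30.3% of the 198 and at 11.9% of the 1118, H3R8me2a at 17.2 and 2.50%, and H4R3me1 at 15.7 and 1.79%. The shares of genes with a P7 promoter peak were 47.0 and 51.0%. Of all new peaks, 630 (39.3%) had none of the 6 marks in any P14 list, against 5.45% of the promoter peaks of both ages, which were wider.

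The 5 peaks with H3K27ac and the most other marks were at Sfi1, Malat1, Rnf165, Mex3c and Gm10807, each with the 5 arginine marks in all 12 P14 lists. Many of these marks were already called at P7. Sfi1 and Rnf165 had H3K27ac in both P7 lists and H4R3me2a in all 3, whereas Malat1 had H3R2me2a and H4R3me1 in no P7 list. At Sfi1, a centrosome gene, the peak lay at chr11:3133346-3134006, with the summit 2285 bp downstream of the nearest annotated start. Malat1, a nuclear long noncoding RNA, was at 116, 120 and 92.9 TPM in testes and 2697 and 2329 TPM in sorted cells.

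The genes of the new peaks were then followed in the P7 comparison of Prmt1-dKO with WT, with edgeR's quasi-likelihood test over all genes and Benjamini-Hochberg adjusted p (a gene is called at an adjusted p below 0.05 and a change of at least 2-fold). Prmt1 itself was at 604 to 652 TPM in the WT and 402 to 433 TPM in the dKO testes, a log2 fold change of -0.49 ± 0.13 (SE, edgeR adjusted p = 0.0334). In the sorted cells it was at 350 and 239 TPM in WT and 179 and 151 TPM in dKO (edgeR adjusted p = 0.133). In whole testes 862 genes of new peaks passed the filter on low counts, and 56 (6.497%) were higher and 14 (1.62%) lower in dKO, as compared with 5.32% higher and 1.78% lower over all 16554 genes tested. The median log2 fold change was 0.02 for the members and 0.02 for all genes. DESeq2 called 62 higher and 14 lower among the members, and 6.34% and 1.37% over all genes. The members' shares were thus near those of all genes. Genes without a P7 promoter peak were called higher in 31 of 210 cases (14.8%), against 20.5% of all autosomal genes without one, and those with one in 25 of 652 (3.83%), against 2.81% of all autosomal genes with one.

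Among the higher genes, Adm, the vasodilator peptide adrenomedullin, was at 2.32, 2.23 and 2.4 TPM in WT and 25.5, 20.1 and 21.7 TPM in dKO testes, without overlap, a log2 fold change of 3.35 ± 0.17 (SE, edgeR adjusted p = 4.07e-05). It was listed at 0 in all 4 sorted libraries. Oxtr, the oxytocin receptor, was at 5.34, 5.25 and 6.46 TPM in WT and 17.4, 14.3 and 15.7 TPM in dKO, a log2 fold change of 1.57 ± 0.13 (edgeR adjusted p = 0.000527). Hoxa7, with its new summit 9 bp from the start, had a log2 fold change of 1.97 ± 0.35 (edgeR adjusted p = 0.0064). Hoxb1, which is named through the homeobox list because its counts were too low for the rule on called genes, was at 0.4, 0 and 0.26 TPM in WT and 3.32, 4.09 and 2.72 TPM in dKO testes and was listed at 0 in the sorted cells (edgeR adjusted p = 0.00209). Elavl3, Arhgap22, Crip3, Slco2b1 and Col9a2, a cartilage collagen, completed the 8 with the largest fold changes at a mean of at least 50 counts, at log2 fold changes of 1.34 to 1.66.

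Of the lower genes, Cadps, a regulator of vesicle exocytosis, was at 6.74, 5.28 and 5.27 TPM in WT and 2.1, 3.36 and 1.93 TPM in dKO testes, and fell by 1.96 ± 0.18 on the log2 scale (SE, edgeR adjusted p = 0.000732). Cnn1 was at 30.9, 36.3 and 31.0 TPM in WT and 4.4, 13.3 and 3.19 TPM in dKO (edgeR adjusted p = 0.0175), and was not called without WT replicate 1 or WT replicate 2, with an adjusted p of up to 0.0528. Synpo, an actin-associated protein, fell by 1.11 ± 0.13 (edgeR adjusted p = 0.00172), and Hsd17b1, a steroid-converting enzyme at 129, 94.3 and 108 TPM in WT, fell by 1.04 ± 0.15 (edgeR adjusted p = 0.00309). Btnl10, Gm9833 and Bsn were also named as lower. Elavl3, Cnn1 and Bsn were not called without WT replicate 1, with an adjusted p of up to 0.0549. Hsd17b1 fell under the 2-fold limit without WT replicate 1 and without dKO replicate 2, with a log2 fold change that remained at -0.94 or beyond and an adjusted p of at most 0.0207. The direction of each held in all 10 alternatives.

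Of the meiotic genes in whole testes, Hsf2bp was at 7.89, 8.59 and 8.15 TPM in WT and 13.8, 13.04 and 10.2 TPM in dKO, without overlap, with a log2 fold change of 0.73 ± 0.18 (edgeR adjusted p = 0.0255) that is under the 2-fold limit of a call. Spo11 was called higher (1.43 ± 0.43, edgeR adjusted p = 0.0455). In the sorted spermatogonia Hsf2bp was at 172 and 112 TPM in WT and 42.4 and 41.4 TPM in dKO (log2 fold change -1.68 ± 0.23, edgeR adjusted p = 0.0774), and Mei1 at 60.2 and 30.4 TPM in WT and 3.86 and 4.94 TPM in dKO (-3.15 ± 0.40, adjusted p = 0.0774). The WT and dKO values did not overlap for either gene in the sorted cells. Neither was called by edgeR, while DESeq2 called both lower, with log2 fold changes of -1.73 ± 0.27 for Hsf2bp (adjusted p = 1.62e-08) and -3.19 ± 0.43 for Mei1 (adjusted p = 5.02e-11).

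In the sorted spermatogonia edgeR called none of the 823 genes of new peaks tested, in either direction, and 0.0% higher and 0.0% lower of all 16443 genes. At an unadjusted p below 0.05 there were 129 higher and 67 lower among the members, 23.8% of those tested, as compared with 23.8% of all genes. DESeq2 called 67 members higher and 36 lower of 841, as compared with 7.33% higher and 3.93% lower over all genes. The WT replicates differed widely, with a biological coefficient of variation of 0.767 in the sorted cells and 0.155 in whole testes, and leaving out WT replicate 1 or WT replicate 2 gave 395 called members (295 higher, 100 lower) and 304 (213 higher, 91 lower), beside 5290 higher and 2146 lower and 4089 higher and 2029 lower over all genes, with the remaining WT library assumed to vary like the dKO libraries. The median log2 fold change of the members was 0.18 and that of all genes 0.15.

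The DNA under the new promoter peaks lay between that of CpG islands and that of distal DNA. The median CpG observed/expected ratio in the 300 bp around the summit was 0.380 and the median GC content 53.7%, as compared with 0.805 and 66.3% for the promoter peaks of both ages, 0.190 and 47.0% for the new distal peaks and 0.389 and 53.0% for RefSeq promoters. With the summits of the second P14 replicate the ratio was 0.397. It was 0.527 for the 732 peaks within 500 bp of a start and 0.269 for the others, 0.462 for the peaks with H3K27ac in both P14 lists and 0.237 for those with none of the 6 marks. Whether the gene had a P7 promoter peak made little difference, with ratios of 0.373 and 0.390. TATAAA was found on either strand in 8.55% of the new peaks, 2.23% of the peaks of both ages, 17.6% of the new distal peaks and 13.6% of RefSeq promoters. The SP/KLF letters GGGGCGGGG were found in 2.81, 7.81, 0.860 and 11.6% of the same sets.

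A word recurred near the middle of the new peaks. All 172029 words of 9 letters with 2 free positions were compared between the central 300 bp of the 3720 new distal peaks and windows 1000 bp to either side, a search added after the data had been seen, and the word with the largest difference was GNTGCTNCT (AGNAGCANC on the other strand). The search used no promoter peak. In the new promoter peaks the word was present on either strand in 244 centres (15.2%), and in 6.55% of the windows to either side. In the promoter peaks of both ages the shares were 9.46 and 5.38%, in the new distal peaks used for the search 16.3 and 5.56%, and among RefSeq promoters it was 7.13%. The matches at Hsf2bp, Gsg1 and Usp48 are in capitals in the sequences printed earlier.

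**Figure D5:**
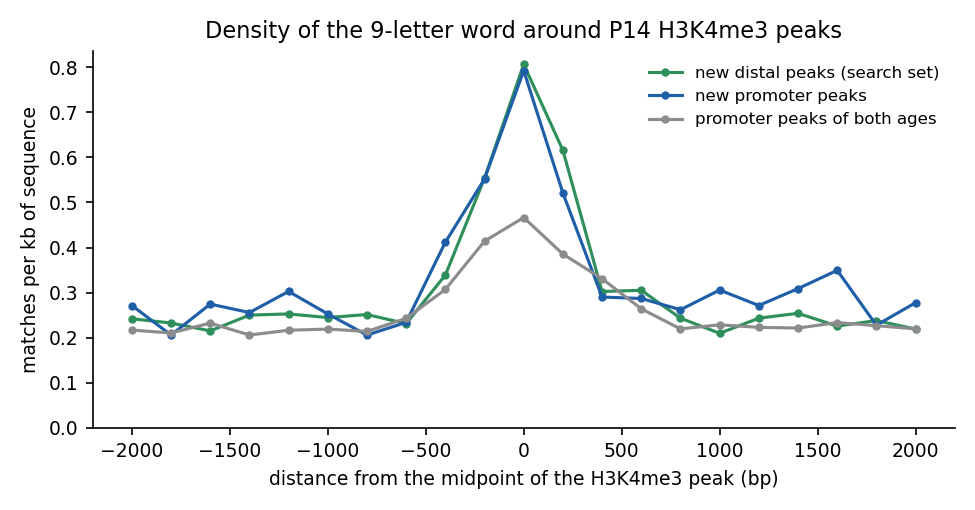
Matches to GNTGCTNCT on either strand per kb of sequence, in bins of 200 bp by distance from the midpoint of the P14 H3K4me3 peak, for the new distal peaks on which the word was found (green), the new promoter peaks (blue) and the promoter peaks of both ages (grey). The blue and green lines reach close maxima at the midpoint and return to the level of the grey line within about 600 bp.

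The word was more frequent in the stronger new peaks. It was in 19.0% of the 401 peaks with the highest mean −log10 q and in 11.2% of the 401 with the lowest. It was less frequent, at 10.6%, in the 198 peaks with H3K27ac in both P14 lists than in the 1118 without, at 15.8%, and it was in 13.5% of the peaks within 500 bp of a start and 16.6% of the others. Peaks with the word were wider, with a median of 540 bp against 402 bp, and had a median CpG ratio of 0.310 against 0.400. These shares are descriptions over peaks, which are not replicates. A match shows only that the letters occur.

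The rule has 3 thresholds, on the distance to a start, on the overlap with the second replicate and on the overlap with a P7 peak. The summit of the member at Dock4 lay 2993 bp from a start and that at Zfp672 2990 bp, while the nearest peaks outside lay at 3005 and 3009 bp. The member at Fgf9 overlapped the second replicate by 1 bp, while a peak near Col9a2 that adjoined a peak of the second replicate with a gap of 0 bp and the peak at Tal2 with a gap of 4 bp were left out. The member at Mchr1 lay 5 bp from a P7 peak, while the peak at Gm47867 was left out for an overlap of 1 bp.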

How the data were processed

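Peaks were called by the authors with MACS2 2.1.0 in each CUT&Tag sample alone on mm10. The deposited lists give each peak's fold enrichment over the local background and its −log10 q. For CUT&Tag, the sources used here name no aligner and no control library. RNA reads were trimmed by the authors with fastp 0.23.2 and mapped with STAR to mm10, and the deposited RSEM tables hold expected counts and TPM per gene. Library totals were 12396317 to 16598233 expected counts for bulk RNA-seq and 15610354 to 18547078 for Smart-seq2. TPM was used as deposited. Expected counts were rounded, filtered with filterByExpr at a minimum count of 10 and then tested over all genes by quasi-likelihood in edgeR 4.0.16 (R 4.3.3), with DESeq2 1.42.0 as an alternative, and called at an adjusted p below 0.05 and at least 2-fold. The depth of the peak lists is unknown.

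The new peaks and the gene lists were chosen with earlier results of these data known. Named genes were the 12 peaks with the highest mean −log10 q, up to 6 per gene list, up to 8 genes called higher and 8 called lower in bulk, by fold change, at a mean of at least 50 counts, the 5 highest in TPM, and the 5 peaks with H3K27ac in both P14 lists and the most other mark lists, and the peaks next to each threshold. Starts came from GENCODE vM21. All 31396 RefSeq promoters were identical to the GRCm38 genome at their coordinates. CpG and fixed motifs were read in 300 bp around the summit, and the word search and the printed stretches used 300 bp around the midpoint. The statistical scripts were tested on simulated data. Alternatives changed the peak, mark, expression and test settings 1 at a time, with a replicate block among them. A gene that the naming rule selects is not reported here.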

Additional observations from a re-analysis of the deposited data

Results flagged for a closer look

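For 18 named genes the log2 fold change by genotype differed between the RNA assays by an interaction term of genotype and assay (edgeR, Benjamini-Hochberg adjusted p from 0.000126 to 0.0466), a term with an adjusted p below 0.05 for 3722 of 19608 genes and 215 of 969 genes of new peaks. The change in sorted spermatogonia minus that in whole testes was negative for the meiotic genes Spo11 (-7.54), Mei1 (-3.20) and Hsf2bp (-2.32) and for Oaz3 (-5.94). It was positive for Hsd17b1 (10.70), Cnn1 (10.21), Cfap161 (8.41), Col9a2 (7.71), Slco2b1 (6.03), Hoxa7 (5.45), En1 (5.01), Rnf165 (4.97), Gm9833 (3.08), Gnas (2.84), Aldoa (1.51), Malat1 (1.40), Tdrd9 (0.82) and Ptma (0.52). Hsd17b1, Cnn1, Cfap161, Col9a2, Slco2b1 and Hoxa7 were listed at 0 in both sorted WT libraries, so that the size of their fitted values depends on the prior count, and Spo11 rests on 1 sorted WT library with 18.9 TPM beside one with 0.09.

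On the sex chromosomes, which the autosomal rule leaves out, 74 peaks of chromosome X and 1 peak of chromosome Y met the other conditions.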

How the results depend on the processing

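Of 123 alternatives run, 28 moved a count by over 1.5 times or another value by over 1 SD. The remaining 95 include mark differences, which were compared by direction alone and fell by over 1.5 times at q of at most 0.01 for H4R3me2a, H3R2me2a, H3R8me2a, H4R3me1 and H4R3me2s. At equal list length the differences of all 6 marks fell by over 1.5 times, that of H3K27ac from 16.2 to 9.30 points. The bulk median log2 fold change of the members, at 0.02, was -0.00278 without dKO replicate 2. The number of new promoter peaks was 1603 as reported, 1006 with a 1000 bp window, 672 with the 4 H3K4me3 lists at equal length (655 of them overlapping a reported peak), 830 with protein-coding starts, and 1913 to 2932 when 1 H3K4me3 list was left out. The share of genes with at least 1 TPM in bulk (52.0%) was 57.6% at a TPM of at least 0.5, 39.7% at 5, 49.6% for every gene with a start in the window, 73.0% for protein-coding genes and 54.1% for P14 peaks at q of at most 0.001. In Smart-seq2 (47.4%) it was 50.4% at 0.5, 35.7% at 5, 63.8% for protein-coding genes and 41.7 to 45.2% without 1 WT library. Called genes numbered 42 to 74 in bulk and 0 to 395 in Smart-seq2 when 1 library was left out, and 103 in Smart-seq2 with DESeq2. The median log2 fold change was 0.0704 in bulk without a filter, and in Smart-seq2 0.13 with RLE size factors, 0.26 without a filter and 0.0836 to 0.48 without 1 library. The median CpG ratio was 0.476 with the 1000 bp window and 0.367 at q of at most 0.001. The cause of these shifts was not tested, beyond the smaller or larger sets that each setting makes.

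The shared replicate numbers were not used to pair the RNA samples. Same-numbered deviations correlated at 0.0825, -0.221 and -0.119 in bulk and 0.0177 in Smart-seq2. With 2 Smart-seq2 libraries per genotype the deviations mirror each other and give a single value. These correlations cannot show whether the samples were paired. With the replicate block 57 members were called in bulk, 56 of them also without it, and 0 in Smart-seq2, with medians of 0.00 and 0.46.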
